A study of Mus musculus with 10 samples.

Results

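The interferon regulatory factor (IRF) genes encode transcription factors that share an N-terminal DNA-binding domain and read the GAAA repeats of interferon-responsive promoters. The 8 genes described here are Irf1, Irf2, Irf3, Irf4, Irf5, Irf7, Irf8 and Irf9. They were taken from a count table of 17737 mouse genes by matching Ensembl gene identifiers to these symbols in GENCODE mouse release 21. All 8 were listed, and all 8 passed the filter on low counts that left 13798 genes for testing. The smallest count of any of them in any tumor was 288.

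RNA was sequenced from whole tumors that grew under the skin of the flank of C57BL/6 mice, an inbred strain with an intact immune system, and were taken on day 11. In the 5 D69A tumors the implanted B16-F10 melanoma cells overexpressed an IL-18 in which alanine replaces the aspartate at position 69. In the 5 WT tumors the same line overexpressed the unchanged cytokine. Every tumor therefore carried an added IL-18 and the host's own Il18 gene, and no tumor without overexpression was analysed here. The labels do not state the promoter used, whether each line was 1 clone or a pool, the age or sex of the mice, or whether the tumors of a group grew in separate mice. P-values accordingly measure only the spread between these samples, which may be technical. Differences between the cell lines and the effect of the substitution cannot be told apart.

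In this family Irf1 is induced by interferon-gamma and activates genes of antigen presentation, while Irf2 binds the same sites and counteracts it. Irf9 is the DNA-binding part of ISGF3, the factor that carries the type I interferon signal to the genome, and Irf7 is one of the genes ISGF3 induces. Irf3 and Irf7 are activated by the kinases TBK1 and IKK-epsilon below sensors of nucleic acids and switch on the type I interferon genes. Irf5 acts below Toll-like receptors and MYD88 in myeloid cells. Irf4 and Irf8 act with the ETS factor PU.1 in leukocytes. Irf8 is needed for type 1 dendritic cells and monocytes, and Irf4 for plasma cells and type 2 dendritic cells. In human melanocytes IRF4 also works with MITF at the tyrosinase gene.

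Total counts were between 34400949 and 37578722 in D69A tumors and between 25904345 and 37556163 in WT tumors, with the lowest total in WT tumor 6. Of the genes tested, 43.5% passed edgeR's quasi-likelihood test at an adjusted p of 0.05, with 24.7% of the genes tested lower and 18.8% higher in D69A tumors. Il18 itself was at 27.3 ± 2.41 CPM in D69A tumors and 29.6 ± 2.56 CPM in WT tumors (SD, n = 5 each; edgeR quasi-likelihood test, adjusted p = 0.266). CPM are counts scaled to library size with TMM factors. Whether reads of the introduced transcript are counted in that value was not tested. If they are, the introduced and the host transcript are not told apart in it. The defining melanocyte genes marked every tumor, with the 8 markers summing to 24505 to 31422 CPM in D69A tumors and 16651 to 20658 CPM in WT tumors. D69A tumor 1 had the highest summed pan-leukocyte level of its group and also had much skeletal muscle RNA, as did WT tumors 3 and 4.

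Of the 8 IRF genes, 7 fell in D69A tumors, against a background of 24.7% of all genes tested, and none rose by edgeR at the adjusted threshold. At an unadjusted p of 0.05 the count of higher genes was 1, with DESeq2 it was 1 and with limma-voom 0, and that gene was Irf4. The decreases spanned Irf7 at 7.82-fold to Irf3 at 1.36-fold. The median log2 fold change of the 8 genes was -1.56, beside 0.00 over all genes tested. In 7 genes every D69A tumor lay below every WT tumor, a separation that 17.4% of all genes tested showed, and the opposite one was seen in none of the 8 and in 12% of all genes tested. At least 2-fold lower were 5 of the 8 genes, and 15.8% of all genes tested. At least 4-fold lower were 3 of the 8, and 8.02% of all genes tested. In whole tissue a smaller number of cells of a type and less RNA per cell cannot be told apart.

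**Figure D1:**
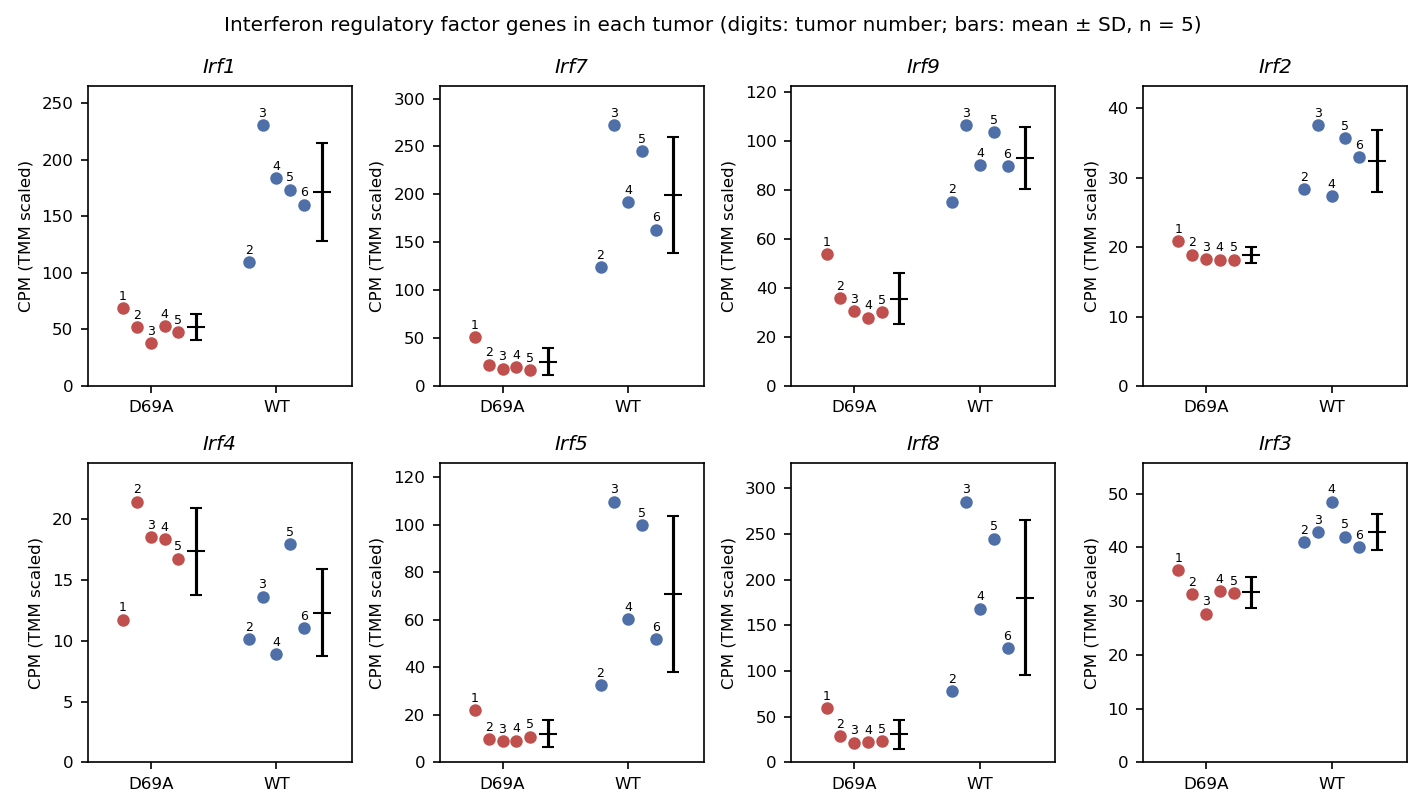
CPM of each IRF gene (y axis, linear, from 0) in the 5 D69A tumors (left, red) and the 5 WT tumors (right, blue). Digits are tumor numbers and black bars the mean ± SD. The groups do not overlap in 7 genes, and in Irf4 they do.

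Irf7, the interferon-induced activator of interferon-alpha genes, had the largest decrease. It lies on the minus strand of chromosome 7 (141262706 to 141266481 in mm10). D69A tumors 1 to 5 had 51.2, 22.2, 17.9, 19.6 and 16.4 CPM, and WT tumors 2 to 6 had 124.1, 272.3, 192.0, 245.2 and 163.0 CPM. The highest D69A tumor, number 1, was still below the lowest WT tumor, number 2. The log2 fold change was -2.97 with an SE of 0.35 (edgeR quasi-likelihood test, adjusted p = 0.000447), and only 1.06% of all genes tested had a lower one. Reads from 1.19% of its annotated exon bases can also come from Phrf1 on the opposite strand, because the use of strand in counting is not given in the sources used here.

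Irf1, the interferon-gamma-induced activator (chromosome 11, 53770014 to 53778374), was among the most abundant of the family. It was at 68.9, 52.2, 37.6, 52.8 and 47.5 CPM in D69A tumors 1 to 5, and at 109.3, 230.4, 183.4, 173.4 and 160.2 CPM in WT tumors 2 to 6. The groups did not overlap, with WT tumor 3 highest and D69A tumor 3 lowest. The log2 fold change was -1.73 with an SE of 0.20 (edgeR quasi-likelihood test, adjusted p = 0.000447). Of its exon bases 3.40% lie opposite Gm17334. Because Irf1 is a textbook interferon-gamma target, the 250 bases before its RefSeq start are shown. They are chr11:53769764-53770013 on the plus strand of GRCm38.p6, with the 1 match to the gamma-activated site (GAS, TTCNNNGAA) in capitals, 90 to 82 bases before the start.
Irf1: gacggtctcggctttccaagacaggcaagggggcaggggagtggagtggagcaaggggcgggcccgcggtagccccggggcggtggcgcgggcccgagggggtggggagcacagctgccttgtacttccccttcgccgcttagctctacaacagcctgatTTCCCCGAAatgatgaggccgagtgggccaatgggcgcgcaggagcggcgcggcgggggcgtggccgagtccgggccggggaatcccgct

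Irf9, the DNA-binding subunit of ISGF3 (chromosome 14, 55603571 to 55610030), fell by less than Irf7. D69A tumors 1 to 5 held 53.7, 35.8, 30.5, 27.9 and 30.0 CPM, and WT tumors 2 to 6 held 75.2, 106.5, 90.1, 103.6 and 89.7 CPM. Its log2 fold change was -1.38 with an SE of 0.17 (edgeR quasi-likelihood test, adjusted p = 0.000506). All 5 D69A tumors lay below all 5 WT tumors. On the same strand 2.28% of its exon bases are shared with Rnf31.

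The dendritic cell and monocyte factor Irf8 and the myeloid factor Irf5 fell by nearly the same fold. Irf8 (chromosome 8, 120736358 to 120756694) was at 59.0, 28.8, 21.6, 22.4 and 23.0 CPM in D69A tumors 1 to 5, and at 77.8, 285.5, 168.3, 245.0 and 125.0 CPM in WT tumors 2 to 6. Its log2 fold change was -2.54 with an SE of 0.40 (edgeR quasi-likelihood test, adjusted p = 0.000941). The spread among WT tumors was wide, and WT tumor 2 was closer to D69A tumor 1 than to any other WT tumor. Irf5 (chromosome 6, 29526625 to 29541871) was at 21.97, 9.77, 8.83, 9.20 and 10.9 CPM in D69A tumors 1 to 5, and at 32.5, 109.6, 60.3, 99.6 and 51.7 CPM in WT tumors 2 to 6. The log2 fold change of Irf5 was -2.54 with an SE of 0.37 (edgeR quasi-likelihood test, adjusted p = 0.000751). In both genes D69A tumor 1 and WT tumor 3 were the highest of their groups, and the groups did not overlap. For Irf5, 14.1% of the exon bases lie opposite exons of Tnpo3, so part of its reads may belong to that gene.

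The region before the first start of Irf8 is shown because it also holds GAS matches. It is chr8:120736108-120736357 on the plus strand of GRCm38.p6, and the capitals mark both matches, at 171 to 163 and at 153 to 145 bases before the start.
Irf8: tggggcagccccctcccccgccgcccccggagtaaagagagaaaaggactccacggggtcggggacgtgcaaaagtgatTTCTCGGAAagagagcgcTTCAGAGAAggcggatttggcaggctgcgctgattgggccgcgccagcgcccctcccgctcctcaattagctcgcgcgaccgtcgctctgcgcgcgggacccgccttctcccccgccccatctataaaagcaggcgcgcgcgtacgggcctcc

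Irf2, the counterpart of Irf1 (chromosome 8, 46739732 to 46847458), fell modestly. It was at 20.9, 18.9, 18.3, 18.2 and 18.2 CPM in D69A tumors 1 to 5, and at 28.4, 37.6, 27.4, 35.7 and 32.9 CPM in WT tumors 2 to 6. The D69A tumors lay within a narrow band that no WT tumor entered. Its log2 fold change was -0.78 with an SE of 0.10 (edgeR quasi-likelihood test, adjusted p = 0.000491). The 250 bases before its start are shown because, of the regions searched before the starts of the 8 genes, they hold the only match to the core of the interferon-stimulated response element (ISRE, GAAANNGAAA) and the only match to the ETS-IRF composite element (GGAANNGAAA). They are chr8:46739495-46739744 on the plus strand of GRCm38.p6. The first run of capitals is the composite match (247 to 238 bases before the start), which overlaps the ISRE match (241 to 232), and the second is a GAS match (224 to 216).
Irf2: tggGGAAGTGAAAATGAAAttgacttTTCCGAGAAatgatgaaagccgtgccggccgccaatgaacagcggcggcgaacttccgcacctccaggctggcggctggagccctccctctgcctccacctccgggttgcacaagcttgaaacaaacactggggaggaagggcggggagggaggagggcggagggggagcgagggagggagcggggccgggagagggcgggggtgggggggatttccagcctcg

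Irf3, the constitutive factor that TBK1 activates by phosphorylation (chromosome 7, 44997648 to 45002848), had the smallest decrease that passed. D69A tumors 1 to 5 had 35.8, 31.3, 27.7, 31.8 and 31.5 CPM, and WT tumors 2 to 6 had 40.9, 42.9, 48.5, 42.0 and 40.0 CPM. The groups were separate but close, 35.8 CPM in the highest D69A tumor against 40.0 CPM in the lowest WT tumor. The log2 fold change was -0.44 with an SE of 0.08 (edgeR quasi-likelihood test, adjusted p = 0.00143). Of its exon bases 2.56% lie opposite Bcl2l12.

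Irf4 (chromosome 13, 30749226 to 30766976) was the only one of the 8 with a higher mean in D69A tumors. It was at 11.7, 21.4, 18.5, 18.3 and 16.7 CPM in D69A tumors 1 to 5, and at 10.1, 13.6, 8.87, 17.9 and 11.0 CPM in WT tumors 2 to 6. The groups overlapped, since D69A tumor 1 lay among the WT tumors and WT tumor 5 among the D69A tumors. The log2 fold change was 0.49 with an SE of 0.21 and did not pass the threshold (edgeR quasi-likelihood test, adjusted p = 0.0740). It passed without D69A tumor 1 (0.62, adjusted p = 0.0224), without WT tumor 5 (0.70, adjusted p = 0.0105) and with DESeq2 (0.49, adjusted p = 0.0475), all against 0.49 here.

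Markers of pigment cells and of leukocytes differed between the groups in opposite directions. Of 8 melanocyte markers, 5 rose (background 18.8%) and 3 did not pass, with a median log2 fold change of 0.43, and Tyr, which encodes tyrosinase, was at 285.8 ± 81.0 CPM in D69A tumors and 112.4 ± 33.7 CPM in WT tumors (SD, n = 5 each). A comparison chosen after the values were seen set Irf4 against the mean log2 CPM of the 8 markers. That log2 ratio was -6.53 ± 0.23 in D69A tumors and -6.48 ± 0.58 in WT tumors (SD, n = 5 each), a difference of -0.05 that is smaller than the spread within either group. Single WT tumors ran from -7.00 to -5.62. WT tumor 5 had the most Irf4 of its group (17.9 CPM) and the lowest marker sum (16651 CPM). D69A tumor 1 had the least Irf4 of its group (11.7 CPM) and also the lowest marker sum (24505 CPM). All 10 pan-leukocyte markers fell (background 24.7%), with a median of -2.01. They summed to 245.0 to 489.2 CPM in D69A tumors and 634.1 to 1672 CPM in WT tumors. Which cells of the tumor made the Irf4 RNA was not tested. The 250 bases before the start of Irf4 (chr13:30748983-30749232, plus strand, GRCm38.p6) held none of the 3 motifs and are printed here. The regions searched before the RefSeq starts of Irf3, Irf5, Irf7 and Irf9, which fell, held none either.
Irf4: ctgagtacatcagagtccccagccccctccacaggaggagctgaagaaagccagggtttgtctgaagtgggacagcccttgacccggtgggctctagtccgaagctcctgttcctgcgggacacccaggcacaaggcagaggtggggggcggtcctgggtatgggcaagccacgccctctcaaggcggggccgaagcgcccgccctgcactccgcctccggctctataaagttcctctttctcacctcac

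**Figure D2:**
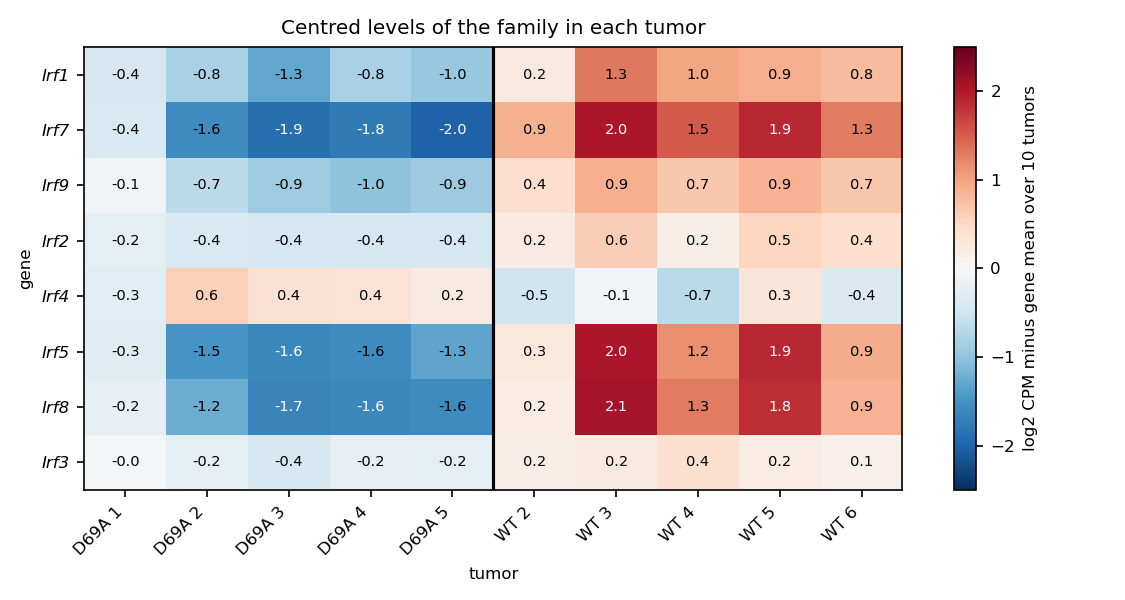
Log2 CPM of each IRF gene minus its mean over the 10 tumors (color and printed digits), with D69A tumors in the left columns and WT tumors in the right columns. D69A tumor 1 is the palest of its group in most rows, and the Irf4 row runs against the other 7.

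Within the D69A group tumor 1 had the highest level of 7 of the 8 genes and the lowest of Irf4. Within the WT group tumor 3 was highest in 6 of the 8 genes and tumor 2 lowest in 5. The pan-leukocyte markers followed, with 489.2 CPM in D69A tumor 1 against 245.0 to 291.2 CPM in the other D69A tumors, and 1672 CPM in WT tumor 3 against 634.1 CPM in WT tumor 2. The part of leukocyte content in these differences between tumors was not tested. Without D69A tumor 1 the log2 fold change of Irf7 was -3.37 and that of Irf8 -2.90. No call of the 7 lower genes was lost when any 1 of the 10 tumors was left out.

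Ratios between genes of the same tumor show where the members differed from each other in their change, and 14 such log2 ratios were compared. Irf7 fell against Irf3, its constitutive relative, by 2.61 on the log2 scale (-0.45 ± 0.56 in D69A tumors and 2.16 ± 0.44 in WT tumors, SD, n = 5 each). Irf8 fell against Irf4, the other partner of PU.1, by 3.02 (0.74 ± 0.89 in D69A tumors and 3.77 ± 0.58 in WT tumors). Irf7 fell against Irf9 by 1.64, and Irf1 fell against its counterpart Irf2 by 0.94. For each of these 4, exact permutation of the tumors (two-sided) gave p = 0.00794, the lowest value possible with 5 tumors a group (0.0139 after Benjamini-Hochberg adjustment over the 14). In none of the 4 did the groups overlap.

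The remaining pairs showed no difference past the threshold. Irf8 to Irf5 was 1.32 ± 0.18 in D69A tumors and 1.34 ± 0.09 in WT tumors (SD, n = 5 each), a difference of -0.02 with an exact permutation p of 0.865. With any 1 tumor left out that difference lay between -0.07 and 0.05. Irf1 to Irf9 differed by -0.30 (exact permutation p = 0.0952, adjusted 0.111), and its groups overlapped.

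Set against the mean log2 CPM of the 10 pan-leukocyte markers, the family divided. Irf7 fell by 1.16 relative to the markers, to 0.12 ± 0.28 in D69A tumors against 1.28 ± 0.15 in WT tumors (SD, n = 5 each). Irf5 and Irf8 fell relative to the markers by 0.61 and 0.62, and by 0.28 and 0.30 relative to Ptprc alone, the gene of the leukocyte protein CD45. Irf4, Irf3 and Irf2 rose relative to the markers by 2.40, 1.45 and 1.12. The markers themselves fell, with a median log2 fold change of -2.01 beside 0.00 over all genes tested. A gene that does not change therefore rises relative to them. Irf3 and Irf2 were lower in D69A tumors (log2 fold changes -0.44 and -0.78), but by less than the markers. The adjusted exact permutation p was 0.0139 for Irf3, Irf4, Irf5 and Irf7 and 0.0222 for Irf2 and Irf8, whose groups overlapped. Irf1 relative to the markers did not differ past the threshold, at 1.26 ± 0.19 in D69A tumors and 1.08 ± 0.33 in WT tumors (SD, n = 5 each; exact permutation p = 0.333, adjusted 0.359), a difference of 0.18 that was 0.50 relative to Ptprc alone (adjusted exact permutation p = 0.0556). Irf9 was higher by 0.47 (exact permutation p = 0.0317, adjusted 0.0404), a call that was lost in 9 of the 10 comparisons that left out 1 tumor, with differences of 0.37 to 0.59, and relative to Ptprc alone it was higher by 0.80. Cells other than leukocytes also transcribe several of these genes, so the ratio to leukocyte markers is not a level per leukocyte.

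**Figure D3:**
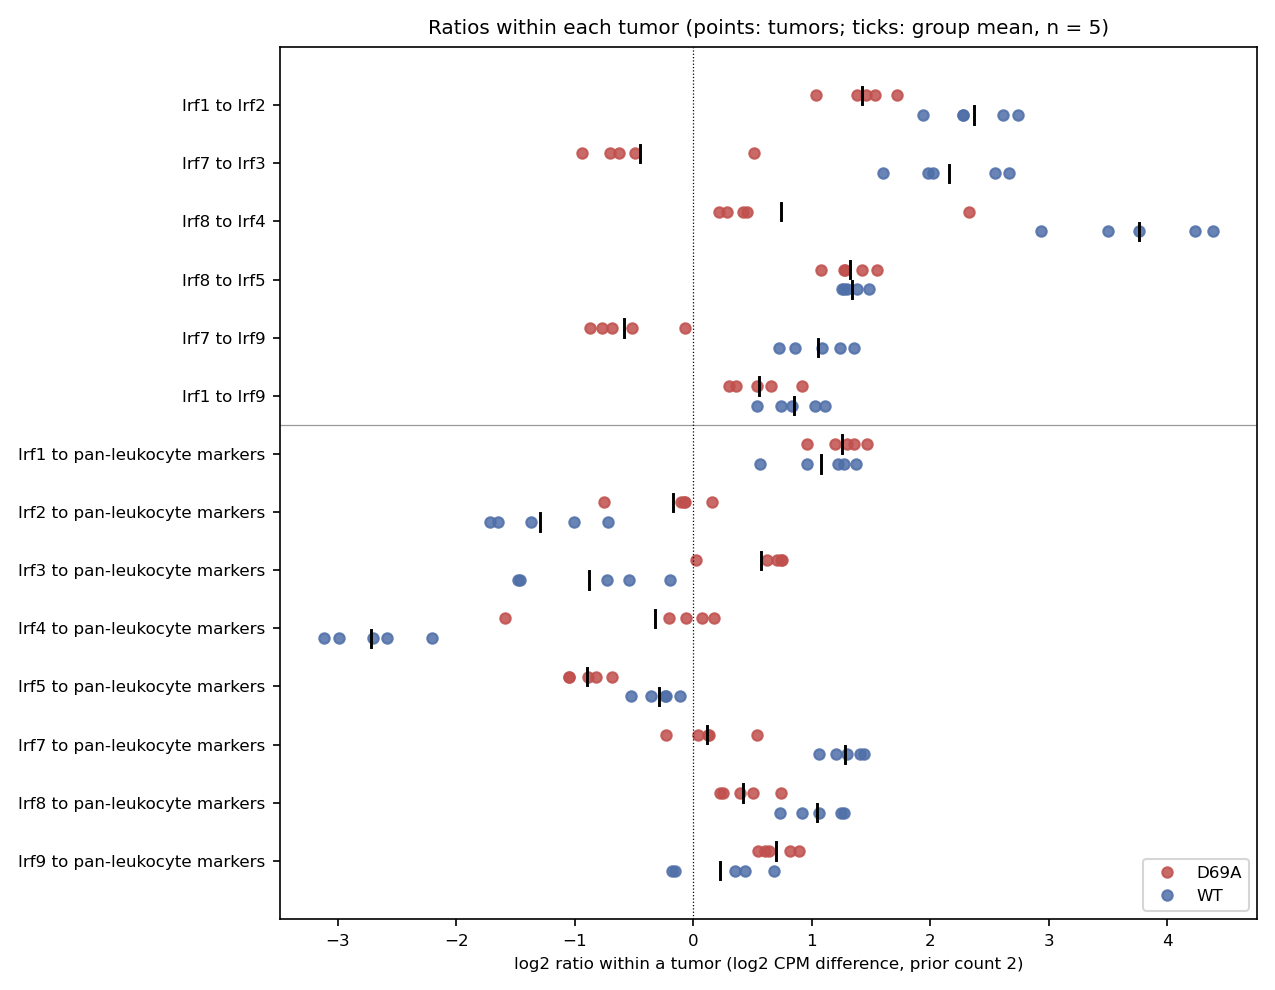
Log2 ratios within a tumor (x axis), between IRF genes above the line and against the mean of the 10 pan-leukocyte markers below it. Each point is a tumor, D69A in red above WT in blue, and ticks are group means. Irf8 to Irf4 differs most, and Irf8 to Irf5 has the same mean in both groups to within 0.02.

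Levels of different genes can be compared only per length, here as CPM per kb of merged annotated exons. Summed over the 8 genes, the family reached 50.2 ± 12.8 CPM per kb in D69A tumors and 182.4 ± 52.5 CPM per kb in WT tumors (SD, n = 5 each). In D69A tumors the level per kb ran from Irf1 (13.0 ± 2.85) through Irf3 (9.19 ± 0.84), Irf7 (6.75 ± 3.86), Irf9 (6.61 ± 1.95), Irf8 (4.39 ± 2.26), Irf5 (4.17 ± 1.91) and Irf4 (3.53 ± 0.73) to Irf2 (2.56 ± 0.16). In WT tumors the level per kb ran from Irf7 (52.8 ± 15.9) through Irf1 (43.1 ± 11.0), Irf8 (25.6 ± 12.1), Irf5 (24.3 ± 11.3), Irf9 (17.3 ± 2.33), Irf3 (12.5 ± 0.97) and Irf2 (4.38 ± 0.60) to Irf4 (2.51 ± 0.73). Neighbors in the D69A order overlapped in every case, and in the WT order only Irf3 over Irf2 and Irf2 over Irf4 did not overlap. Within single tumors, Irf7 was above Irf9 in 1 of 5 D69A tumors and Irf5 above Irf4 in 2 of 5. The other neighbors of the D69A order held in 4 or 5 of its 5 tumors. In the WT order Irf8 was above Irf5 in 3 of 5 tumors, and the other neighbors held in 4 or 5.

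The make-up of the family followed from these levels. Irf3 was 18.8 ± 2.63% of the summed level per kb in D69A tumors and 7.30 ± 2.13% in WT tumors (SD, n = 5 each). Irf4 was 7.51 ± 2.43% of it in D69A tumors and 1.42 ± 0.34% in WT tumors. Irf7 was 12.8 ± 3.44% in D69A tumors and 28.9 ± 0.67% in WT tumors, and Irf1 was 26.1 ± 2.40% in D69A tumors and 23.9 ± 2.47% in WT tumors. Shares of a sum depend on each other, and they were not tested. The merged exons of Irf7 form 1 block over the whole gene because some annotated transcripts retain introns, which lowers its level per kb. With the longest transcript as the length, Irf1 led in both groups, and Irf7 was the fifth in D69A tumors and the second in WT tumors.

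**Figure D4:**
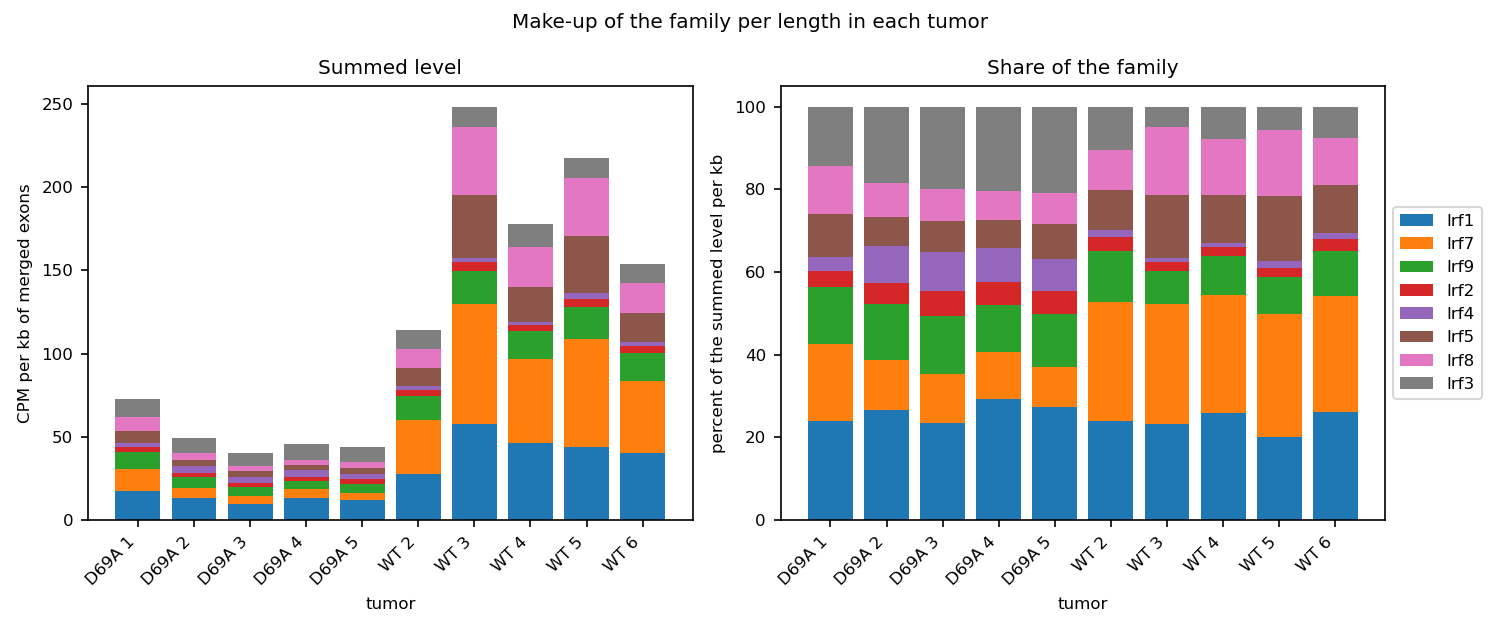
Stacked levels of the 8 IRF genes per tumor, as CPM per kb of merged exons (left) and as percent of their sum (right), with D69A tumors before WT tumors on the x axis. Summed levels are 40.3 to 72.4 in D69A tumors and 114.3 to 248.3 in WT tumors, and the Irf7 share is larger in each WT tumor than in any D69A tumor.

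Genes whose centred log2 profile over the 10 tumors lay nearest to each member were found among 12109 genes with a mean of at least 1 CPM, by root mean square difference. Nearest to Irf1 were Trim21 (0.11), Irgm1 (0.14) and Tor3a (0.14). Nearest to Irf7 were Trim30a (0.14), Oas3 (0.15) and Mx1 (0.16), and nearest to Irf9 were Tapbp (0.11), Ifitm3 (0.12) and Parp10 (0.13). Nearest to Irf5 were Gvin1 (0.10), Pld4 (0.11) and Ifi205 (0.11). Nearest to Irf8 were Plbd1 (0.08), Napsa (0.09) and Cd74 (0.09), which encodes the MHC class II invariant chain. Nearest to Irf2 were Emp1 (0.09), Tubb2a (0.10) and Gramd1b (0.10), and nearest to Irf3 were Mier2 (0.06), Nxf1 (0.07) and Pced1a (0.07). Nearest to Irf4 were Pdk1 (0.16), Vmn2r60 (0.16) and Pgk1 (0.16), which encodes a glycolytic enzyme. Between members the closest pair was Irf5 and Irf8 at 0.13, and the farthest was Irf4 and Irf7 at 1.89.

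The interferon and JAK-STAT genes that act on the family fell in part. Of 15 tested genes in this list of 17, 10 fell and Ifnar1 rose, where 24.7% of all genes tested were lower and 18.8% higher. The median log2 fold change was -0.69, beside 0.00 over all genes. Ifng was at 0.37 ± 0.24 CPM in D69A tumors and 2.08 ± 0.85 CPM in WT tumors (SD, n = 5 each; log2 fold change -2.47). The type I interferon genes Ifnb1 and Ifna4 were too low to be tested. Stat2, which encodes a subunit of ISGF3, was 3.91-fold lower, and the feedback inhibitor genes Socs1 and Usp18 were 4.78-fold and 4.96-fold lower. Among receptors, Ifngr1 was lower (log2 fold change -0.87), Ifngr2 did not pass (0.00) and Ifnar1 was 1.21-fold higher.

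Among sensors, adaptors and kinases that activate Irf3, Irf5 and Irf7, every nucleic acid sensor gene fell, Cgas the least (log2 fold change -0.38). The kinase gene Tbk1 did not pass. Of 19 tested genes 11 fell (24.7% of all genes tested) and Traf3 rose (18.8% of all genes tested), with a median of -0.30. The RNA sensor genes Ddx58 and Ifih1 were 3.22-fold and 4.12-fold lower, and Tlr9 and Tlr3 5.98-fold and 2.20-fold lower. The adaptor gene Myd88 was at 20.8 ± 4.16 CPM in D69A tumors and 47.8 ± 12.5 CPM in WT tumors (SD, n = 5 each). Tbk1 was at 57.6 ± 2.59 CPM in D69A tumors and 61.5 ± 3.76 CPM in WT tumors (edgeR quasi-likelihood test, adjusted p = 0.192), and the related kinase gene Ikbke was lower (log2 fold change -0.79). Without the 3 tumors highest in muscle RNA, 7 of these genes fell rather than 11, beside 18.9% of all genes in the same comparison.

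The DNA-binding partners in the list fell, and none of the general cofactors did. Of 15 partner and cofactor genes 9 fell (24.7% of all genes tested), with a median of -0.54. Another 3 rose, a share near the 18.8% of all genes tested that were higher. Spi1, which encodes PU.1, was 4.26-fold lower, and the leukocyte factor genes Ikzf1 and Batf2 4.74-fold and 4.80-fold lower. Bcl6, a repressor gene, was 2.65-fold lower and Batf3, a partner of Irf8 in type 1 dendritic cells, fell by 1.16 on the log2 scale. The 3 that rose were Ep300, which encodes a histone acetyltransferase (1.31-fold), and Irf2bp1 and Irf2bpl, related to a corepressor that binds IRF2 (1.26-fold and 1.38-fold). Irf2bp2, Crebbp and Hdac3 did not pass (log2 fold changes -0.18, 0.21 and 0.13).

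Textbook targets of IRF1 and of ISGF3 were lower throughout. The counts here stand beside 24.7% of all genes tested that were lower, and the medians beside 0.00 over all genes. All 15 tested IRF1 targets of 16 were lower, with a median log2 fold change of -2.21, and the untested one was Ido1. Gbp2, a guanylate-binding protein gene, was 4.92-fold lower, and the immunoproteasome genes Psmb8 and Psmb9 4.63-fold and 5.53-fold lower. All 19 ISGF3 targets were lower, with a median of -2.48, from Eif2ak2 at -0.86 to Mx1 at -3.13. Of 7 tested IRF5 targets 6 were lower, with a median of -2.13. Il12b, which encodes a subunit of IL-12, was 10.3-fold lower and Tnf 6.19-fold lower. Il23a did not pass (log2 fold change 0.75). Many of these genes answer to more than 1 IRF or STAT, so the lists are not separate readouts of a single factor.

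Lineage genes tied to Irf8 and Irf4 also fell, those of Irf4 included, while Irf4 did not pass. Counts of lower genes in both lists stand beside 24.7% of all genes tested, and medians beside 0.00. Of 9 genes of type 1 dendritic cells 7 were lower, with a median of -2.502. The chemokine receptor gene Xcr1 and the dead cell receptor gene Clec9a were 9.76-fold and 8.96-fold lower. Id2 and Cadm1, at 171.0 ± 16.4 and 163.5 ± 19.4 CPM in D69A tumors and 174.0 ± 16.1 and 156.7 ± 13.1 CPM in WT tumors (SD, n = 5 each), did not pass. Of 7 tested genes tied to Irf4 in dendritic and plasma cells 5 were lower, with a median of -1.40, among them Prdm1 (2.78-fold) and Mgl2 (2.63-fold). Xbp1 and Sdc1 of that list did not pass, and Jchain was too low to be tested.

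**Figure D5:**
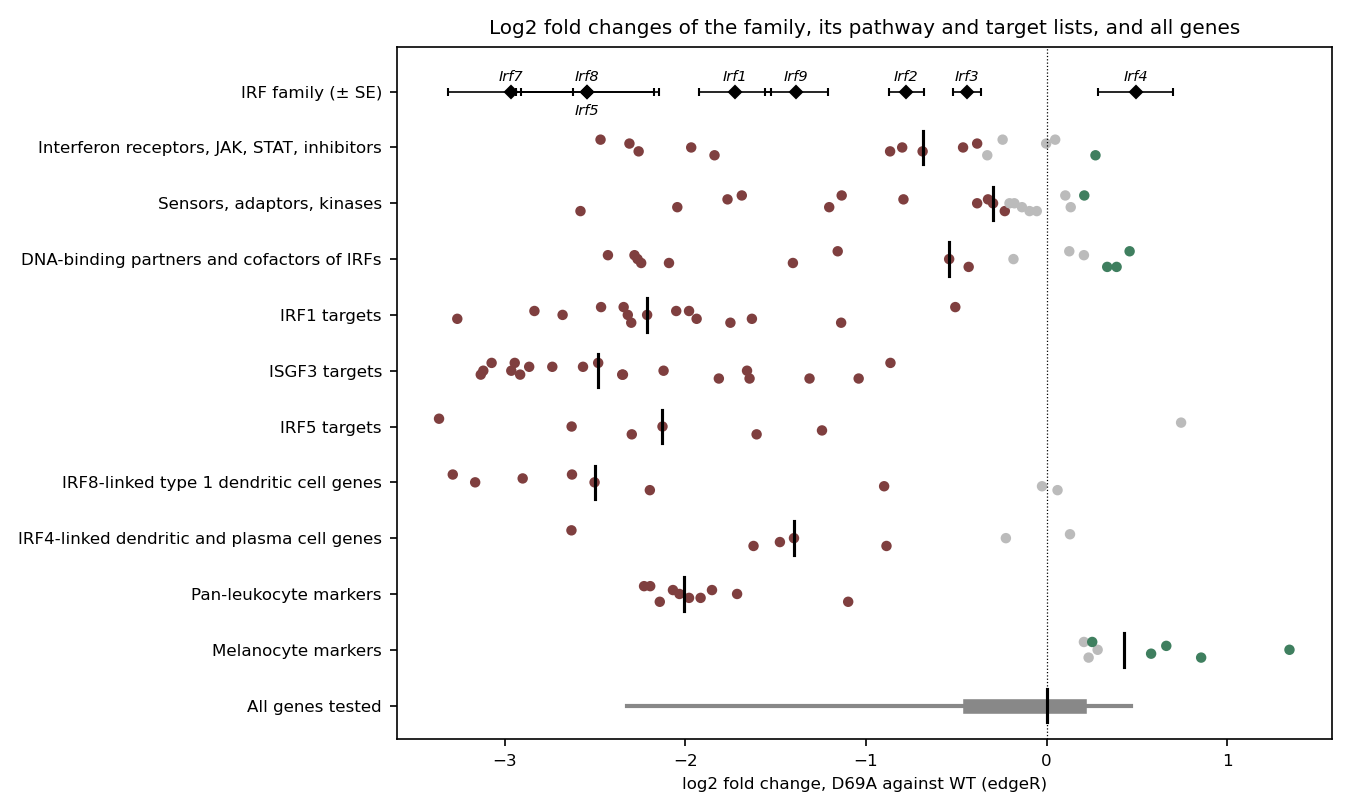
Log2 fold change of D69A against WT (x axis) for the 8 IRF genes with SE (top, black), for every tested gene of 8 pathway and target lists and the pan-leukocyte and melanocyte markers, and for all 13798 genes tested (bottom). Dark red points passed the threshold lower, green points higher and grey points did not pass; black ticks are medians; the bottom bar spans the middle 90% of all genes, thick for the middle 50%. Irf7, Irf5 and Irf8 lie left of the middle 90%. Irf4, which did not pass, lies right of 0 like the melanocyte markers, and just right of the middle 90%.

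Markers of the cells that could carry these transcripts moved as follows, and their part in the IRF values was not tested. The counts of lower markers stand beside 24.7% of all genes tested that were lower. All 8 T cell and all 6 NK cell markers fell, with summed levels of 7.38 to 23.7 and 2.82 to 7.56 CPM in D69A tumors and 31.9 to 94.8 and 17.8 to 36.3 CPM in WT tumors. Of 10 macrophage and monocyte markers 8 fell (512.4 to 755.5 CPM in D69A tumors and 806.0 to 2073 CPM in WT tumors). Of 7 plasmacytoid dendritic cell markers 6 fell (73.5 to 85.7 CPM in D69A tumors and 78.1 to 112.8 CPM in WT tumors), and Tcf4, which made up most of that sum, did not pass. Without the 3 tumors highest in muscle RNA 3 of these 7 fell, beside 18.9% of all genes in the same comparison of fewer tumors. B cell markers were near absent, summing to 0.75 to 1.149 CPM in D69A tumors and 1.78 to 4.83 CPM in WT tumors, and 1 of 2 tested fell (0 to 2 with 1 tumor left out). Of fibroblast markers 6 of 7 and of endothelial markers 6 of 6 fell. Keratinocyte markers summed to at most 1.21 CPM in D69A tumors and 3.72 CPM in WT tumors, with 1 of 2 tested lower. Of 8 skeletal muscle markers 0 passed with edgeR, DESeq2 or limma-voom and 0 had an unadjusted p under 0.05 in either direction, with sums of 14.7 to 499.6 CPM in D69A tumors and 14.7 to 1442 CPM in WT tumors. Their median log2 fold change was nevertheless -2.03. With 1 tumor left out 0 to 2 of them passed lower, and with the tumor number as a block all 8 did.

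Across the 11 RefSeq starts of the 8 genes, the 250 bases before the start were searched on both strands for the 3 motifs spelled out above. The GAS matched at 3 of the 11 starts, those of Irf1, Irf2 and Irf8 printed above, against 7.01% of all 32817 such regions in the mouse table. The ISRE core matched at 1 start (2.97% of all regions) and the composite element at 1 (2.30%), both before Irf2. No match was found before the RefSeq starts of Irf3, Irf4, Irf5, Irf7 or Irf9, which says only that these letters are not in those windows. For Irf9 both windows lie inside the gene as annotated above, so the bases before its annotated start were not searched. The windows of Irf7, Irf4 and Irf2 printed or searched here overlap the annotated gene in part. Irf7, with the largest decrease, and Irf4, with none, were both among the genes without a match. Whether the motifs have a part in the changes was not tested.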

How the data were processed

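Values were deposited as counts, whole numbers per Ensembl gene and tumor without scaling. Per the submitters' processing notes, the build was mm10 and the tools named were fastp, HISAT, Bowtie and RSEM. What each did, its version, the counting rule and strandedness: not given in the sources used here. Because RSEM estimates counts, rounding before deposit is possible. Symbols, coordinates and exon lengths were taken from GENCODE mouse release 21, also mm10 (16 of 17737 identifiers unmatched), and promoter sequences from RefSeq on GRCm38.p6. No column was left unassigned.

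Genes were filtered with filterByExpr by group, scaled by TMM and compared with edgeR's quasi-likelihood test (edgeR 4.0.16, R 4.3.3), adjusted by Benjamini-Hochberg over 13798 genes at 0.05. SEs came from the F statistic. Log2 CPM used a prior count of 2. Ratios were tested by two-sided exact permutation over 252 assignments (scipy 1.17.1). A floor of 3 counts came to 0.08 to 0.11 CPM and covers counting error alone. Every pair of tumors within a group differed beyond sampling noise (lowest chi-square per degree of freedom 13.9).

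The members and lists were chosen with earlier results of these data known. Genes named were the 8 members, Il18, up to 4 genes of each list with the smallest p, and the 3 nearest profiles per member. Other list genes were named after their values were seen. Some genes that the rule names are not reported here. Alternatives were DESeq2 1.42.0, limma-voom (limma 3.58.1), other scalings, filters and thresholds, the tumor number as a block, each tumor left out, another leukocyte yardstick, prior count and length, and, added after seeing the data, leaving out the 3 tumors highest in muscle markers and recounting the lists under each fit. A comparison of the members' proteins was not made.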

Additional observations from a re-analysis of the deposited data

Results flagged for a closer look

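The highest or lowest tumor is given here where the distance to its neighbor took up at least 0.718 of the range of the 5 tumors. Smaller gaps, among them that of WT tumor 4 in Irf3 (48.5 CPM, nearest 42.9), are not given. Such a tumor was found in 8 of 48 sets of 5 values (16.7%), each time D69A tumor 1. Chance gives about 1 in 20 for independent values, and these values of 1 tumor vary together. D69A tumor 1 had 20.9 CPM of Irf2 (nearest other D69A tumor 18.9), 21.97 CPM of Irf5 (10.9), 51.2 CPM of Irf7 (22.2) and 59.0 CPM of Irf8 (28.8). Its log2 ratio of Irf8 to Irf4 was 2.33, against 0.46 in the nearest D69A tumor. Its log2 ratios to the pan-leukocyte markers were -0.75 for Irf2 (nearest -0.10), 0.0216 for Irf3 (0.62) and -1.59 for Irf4 (-0.20). The same tumor had the highest summed pan-leukocyte level of its group (489.2 CPM against at most 291.2 CPM) and the highest summed skeletal muscle level (499.6 CPM against at most 104.0 CPM).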

How the results depend on the processing

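The 7 decreases of Irf1, Irf2, Irf3, Irf5, Irf7, Irf8 and Irf9 kept their direction and their call in all 20 alternatives run for each. Irf4 stayed higher in all 20 and passed in 3: with DESeq2 (log2 fold change 0.495, adjusted p = 0.0475) and in 2 of the fits without 1 tumor, which ranged from 0.405 to 0.704. Of all genes, 1334 were higher at an adjusted p of 0.01 and 1727 when the 3 tumors with most muscle RNA were left out (chosen after seeing the data), against 2594. The difference in Irf9 to pan-leukocyte markers was 0.371 to 0.587 with 1 tumor left out and lost its call in 9 of 10. Relative to Ptprc alone every ratio to leukocyte markers shifted up by the same amount, to -0.835 for Irf7, -0.28 for Irf5, -0.296 for Irf8, 0.504 for Irf1, 0.799 for Irf9, 1.449 for Irf2, 1.775 for Irf3 and 2.725 for Irf4, and no call changed. With the longest transcript as length the mean level per kb over 10 tumors was 52.2 for Irf1, 6.47 for Irf2, 18.3 for Irf3, 30.5 for Irf8 and 16.6 for Irf9, since each is shorter than its merged exons. Tumor numbers 2 to 5 occur in both groups, and same-numbered tumors did not all deviate together (correlations across genes 0.177, -0.417, 0.203 and 0.167), so the numbers were not taken to pair them. The block also takes D69A tumor 1 and WT tumor 6, whose numbers occur once, out of the contrast, and the effects of both changes were not separated. With the replicate block 2246 genes were higher and 3218 lower, Irf4 was at 0.616 (adjusted p = 0.0663), Irf7 at -3.40, no call of a member changed, and all 8 muscle markers passed lower. Ratios were given no test in the 4 pairs, which are too few for a p under 0.05. Without the 3 tumors highest in muscle markers no ratio passed, with adjusted exact permutation p of 0.08 or more. Fewer tumors also raise the lowest p possible. The differences there were -2.744 for Irf7 to Irf3, -3.053 for Irf8 to Irf4, -1.651 for Irf7 to Irf9 and -0.813 for Irf1 to Irf2. Depth was not limiting for members, with at least 288 counts each.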
